A study of Rattus norvegicus with 9 samples.

Results

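Microglia, the resident macrophages of the brain, are recognised in their resting state by a small set of genes for surface receptors, a cytoplasmic protein and transcription factors. The genes described here are the 8 of that kind chosen for this report: Cx3cr1, P2ry12, P2ry13, Gpr34, Csf1r, Aif1, Irf8 and Sall1. They were found by their symbol in the array files, which gave 10 probes of the 30367 probes that are not controls (19291 gene symbols). Aif1 and Csf1r had 2 probes each and the other genes 1. The probe with the highest mean log2 intensity over the 9 arrays represents its gene.

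The samples were total RNA from the infarcted hemisphere of male Sprague Dawley (SD) rats on a normal diet, taken at day 14. Sham rats (3) had the external carotid artery isolated with no filament introduced and received solvent. I/R rats (3, labelled model) had the middle cerebral artery closed for 2 h and then reperfused. DHI rats (3, labelled DH) had the same ischemia/reperfusion and then Danhong injection, an extract of the herbs Salvia miltiorrhiza and Carthamus tinctorius, daily through the tail vein. The sources used here do not state whether the I/R rats received solvent, and they give no age. In this model the vessel is closed by a filament and reopened, so the hemisphere holds infarct together with surviving tissue.

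In healthy brain, microglia survey their surroundings with fine processes. Fractalkine from neurons acts on their receptor Cx3cr1, nucleotides released by damaged cells draw their processes through P2ry12, and survival depends on Csf1r and its ligands Csf1 and Il34. When microglia become activated, P2ry12 is known to fall per cell while Aif1 is known to rise, and both microglia and blood-derived macrophages multiply or gather in an infarct. In hemisphere RNA, a change in the number of cells of a type and a change in the RNA per cell cannot be told apart.

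Each rat had 1 Cy3-labelled Agilent SurePrint G3 Rat array. The 75th percentile of the spot intensities lay between 1816.3 (DHI 2) and 3464.38 (I/R 3), and between 75.2% and 78.9% of probes were well above background. No probe was saturated (0 on every array). Levels below are log2 intensities minus the 75th percentile of their array, so that a level of 1 is 2-fold above that percentile, and differences are on the same log2 scale. The DHI arrays shared slide 2 and all others slide 1, so a slide effect and the effect of DHI cannot be told apart, whereas I/R versus Sham lay within 1 slide. The p-values measure the spread between these rats, and 3 arrays per group limit the precision of each value.

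The sequences of the probes matter for 3 of the genes. P2ry12 and P2ry13 are neighbouring genes of the same receptor family on chromosome 2, and their probes lie 10321 bases apart (rn4, the build of the files). Their last 30 bases, printed 5′ to 3′ to show that the probes differ, are as follows, and the longest stretch the full probes share is 5 bases.
P2ry12 (chr2:148611053-148611112, minus strand): actcctccaaggaaatcaccacataaatat
P2ry13 (chr2:148600672-148600731, minus strand): aaggtaccatgtatgagatggaggacaaag
The only Cx3cr1 probe ends in a dinucleotide repeat, shown in capitals, with CA running over 22 of its 60 bases.
Cx3cr1 (chr8:125033728-125033787, minus strand): aacagattCACACACACACACACACACACA
In the probes of the other genes that represent them, the longest run of alternating C and A was 5 bases. What other probes with such a repeat showed is given beside the Cx3cr1 result.

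Of the 8 genes, 7 were higher in I/R than in Sham, by 3.68-fold (P2ry13) to 24.1-fold (Irf8, whose log2 difference of 4.59 was 2.52 with another background correction), and Cx3cr1 stood apart with a lower mean in I/R. In DHI the same 7 genes had means between those of Sham and I/R. The DHI arrays themselves were spread widely: DHI 1 lay close to I/R and the other DHI arrays close to Sham. All 10 probes passed the filter on dim probes. The Irf8 probe was well above background on 8 arrays, DHI 2 being the exception, and the other probes on all 9.

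**Figure D1:**
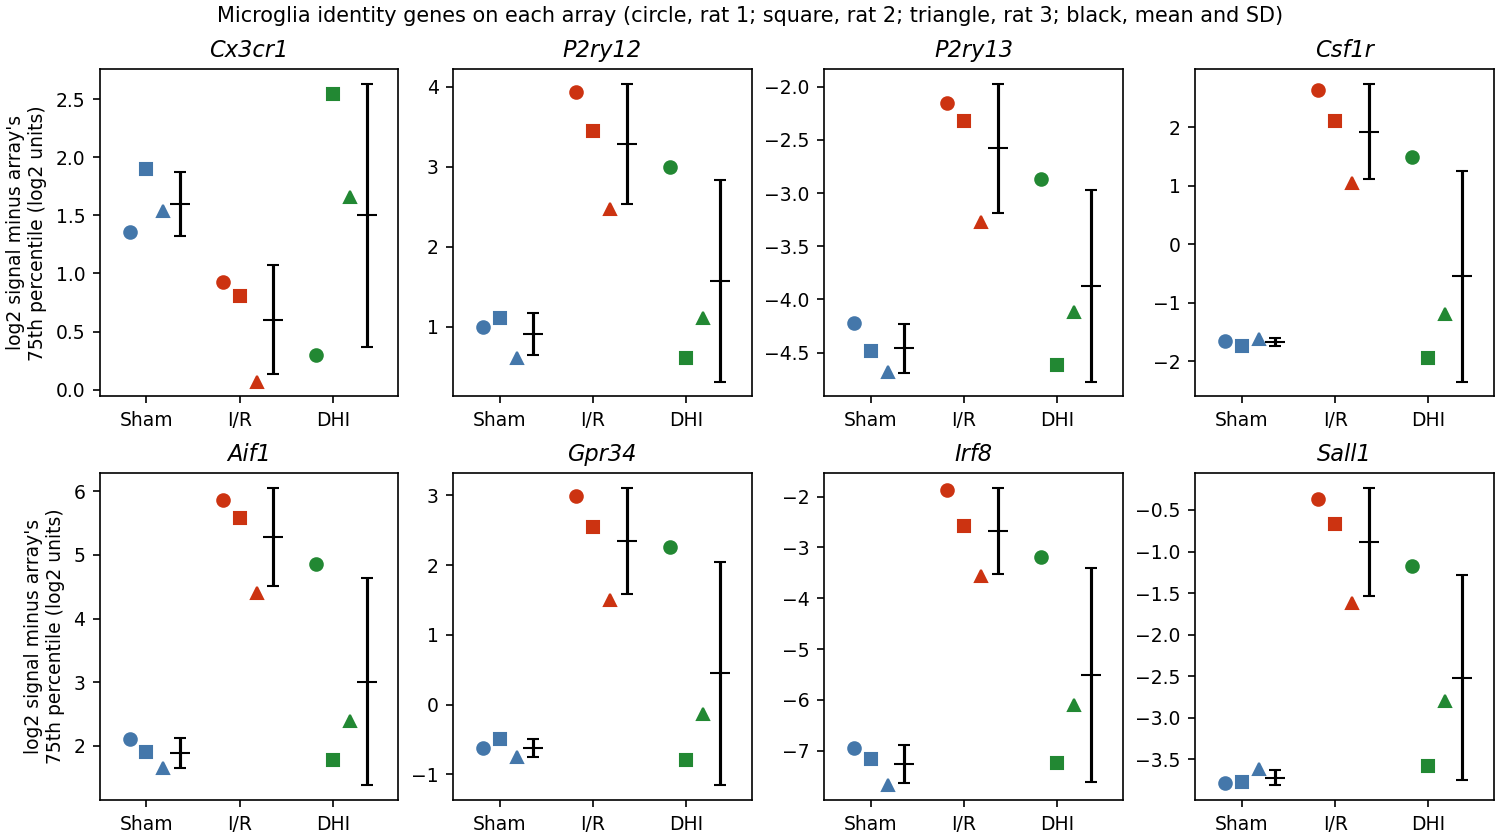
Log2 signal minus the array's 75th percentile (vertical axis, log2 units, a separate scale for each gene) of the 8 genes on the 9 arrays. Circles, squares and triangles are rats 1, 2 and 3 of a group, and the black marks are the group mean and SD (n = 3). Every I/R array lies above every Sham array for 7 genes and below it for Cx3cr1, and DHI 1 lies near the I/R arrays.

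Among the receptors, P2ry12 is the ADP receptor that directs microglial processes to injury. Sham levels were 1.00, 1.11 and 0.61, I/R levels 3.94, 3.45 and 2.47, and DHI levels 3.00, 0.61 and 1.11. The lowest I/R array was above the highest Sham array, and DHI 1 fell among the I/R arrays while DHI 2 and DHI 3 lay within the Sham range or at its edge. The I/R mean exceeded the Sham mean by 2.38 ± 0.62 (SE), 5.21-fold (limma, Benjamini-Hochberg adjusted p = 0.0396). From I/R to DHI it differed by -1.71 ± 0.62, with an adjusted p of 0.196 by limma.

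P2ry13, a second ADP receptor of microglia, was measured at a much dimmer probe. Sham levels were -4.22, -4.48 and -4.68, I/R levels -2.15, -2.32 and -3.27, and DHI levels -2.87, -4.62 and -4.12. The arrays fell in the same arrangement as for P2ry12, except that DHI 3 lay just above the highest Sham array. I/R exceeded Sham by 1.88 ± 0.47, the smallest rise of the 7 genes, and DHI differed from I/R by -1.29 ± 0.47.

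Gpr34 encodes a receptor for lysophosphatidylserine that microglia carry at high levels. The Sham arrays stood at -0.62, -0.49 and -0.75, the I/R arrays at 2.99, 2.54 and 1.5, and the DHI arrays at 2.26, -0.79 and -0.13. DHI 1 again lay inside the I/R range, DHI 2 just below the lowest Sham array and DHI 3 above the highest. The difference was 2.96 ± 0.74 between I/R and Sham, 7.80-fold, and -1.90 ± 0.74 between DHI and I/R.

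Csf1r, the tyrosine kinase receptor on which microglial survival depends, had the tightest Sham values of the receptors. Its brighter probe (chr18:57105231-57105932, a mapping that spans 702 bases for a probe of 60) gave Sham levels of -1.66, -1.75 and -1.62, I/R levels of 2.63, 2.11 and 1.04, and DHI levels of 1.49, -1.94 and -1.19. The I/R group lay far above the Sham group, DHI 1 fell inside the I/R range and DHI 2 was the lowest array of all. I/R exceeded Sham by 3.60 ± 0.81, 12.1-fold, and DHI differed from I/R by -2.48 ± 0.81. The other probe gave differences of 3.03 ± 0.70 and -2.08 ± 0.70, in the same directions.

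Aif1 encodes Iba1, the calcium-binding protein used to stain microglia and macrophages in tissue. Its brighter probe (chr20:3716264-3716323) gave Sham levels of 2.11, 1.90 and 1.65, I/R levels of 5.86, 5.58 and 4.40, and DHI levels of 4.86, 1.78 and 2.39. I/R 3 was the lowest I/R array and still well above all Sham arrays, while DHI 2 lay within the Sham range. I/R exceeded Sham by 3.40 ± 0.75, 10.5-fold, and DHI differed from I/R by -2.27 ± 0.75. The other Aif1 probe gave 3.52 ± 0.78 and -2.27 ± 0.78.

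The transcription factors were Irf8, an interferon regulatory factor that myeloid cells need to develop, and Sall1, a zinc finger factor that among macrophages marks microglia. Irf8 (chr19:51116671-51116730) had Sham levels of -6.94, -7.17 and -7.68, I/R levels of -1.88, -2.58 and -3.56, and DHI levels of -3.18, -7.25 and -6.11. Its Sham intensities were only 12.8 to 21.0, against 294 to 712 in I/R, so the Sham level rested on dim signals, although all 3 Sham arrays were marked as well above background. Every I/R array was above every Sham array, DHI 1 fell inside the I/R range and DHI 2 inside the Sham range. I/R exceeded Sham by 4.59 ± 0.94, 24.1-fold, and DHI differed from I/R by -2.84 ± 0.94. With background corrected by normexp, an alternative applied to the raw spot signals, these differences were 2.52 and -1.37. The rise was then below those of Csf1r (3.51) and Aif1 (3.38). The normexp setting adds an offset of 50 to every intensity, more than the Sham intensities of Irf8, which in itself makes folds smaller at dim probes.

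Sall1 (chr19:19293208-19293267) had Sham levels of -3.78, -3.77 and -3.62, I/R levels of -0.37, -0.67 and -1.62, and DHI levels of -1.17, -3.58 and -2.80. It was the only gene of the 8 whose DHI arrays all lay above all Sham arrays. I/R exceeded Sham by 2.83 ± 0.58, 7.12-fold, DHI differed from I/R by -1.63 ± 0.58, and DHI from Sham by 1.20 ± 0.58 (95% confidence interval -0.14 to 2.55, adjusted p = 0.709 by limma).

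Cx3cr1, the fractalkine receptor, behaved differently. The Sham arrays stood at 1.36, 1.90 and 1.54, the I/R arrays at 0.93, 0.81 and 0.07, and the DHI arrays at 0.30, 2.54 and 1.66. Every I/R array lay below every Sham array, DHI 1 lay inside the I/R range and DHI 2 was the highest array of all. The difference was -1.0 ± 0.52 between I/R and Sham (95% confidence interval -2.21 to 0.21, adjusted p = 0.156 by limma), 0.90 ± 0.52 between DHI and I/R (adjusted p = 0.262) and -0.10 ± 0.52 between DHI and Sham, so that none passed the threshold. It passed the unadjusted p for I/R versus Sham when DHI 1 or DHI 2 was left out, when only the Sham and I/R arrays were fitted, with array weights and with the methods' t-test, with the difference between -1.0 and -0.87. Without DHI 1, with only the Sham and I/R arrays and with array weights it passed the adjusted p as well.

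The repeat at the end of the Cx3cr1 probe was examined after these values were seen. Of the 30367 probes, 15 carry alternating C and A over at least 16 bases. Of the other 14, 9 carry a gene symbol (Plcb4, Pura, Sec61gl, Tmem47, Rassf2, Ptprn2, Glra2, Cym and Extl3). These 14, all of them tested, were lower in I/R than in Sham, with a median difference of -1.96 (range -2.40 to -0.88), and 13 passed an unadjusted p of 0.05 and a 1.5-fold change, against 22.3% of all tested probes that passed downward. In DHI versus I/R all 14 were higher (median 1.59, range 0.98 to 1.83) and 13 passed, against 11.5% of all probes. Relative to the Sham mean, their median was -2.33, -1.67 and -1.88 on the I/R arrays and -1.94, 0.70 and 0.08 on the DHI arrays. Cx3cr1 stood at -0.68, -0.79 and -1.53 in I/R and at -1.30, 0.94 and 0.06 in DHI. On I/R 2, I/R 3, DHI 1 and DHI 3 the Cx3cr1 probe lay inside the range of the 14. On I/R 2 and DHI 1, however, only the highest of the 14 (-0.41 and -0.93) lay above it, and all others lay below. On I/R 1 it was less far below Sham than any of them (-2.77 to -0.94), and on DHI 2 it was just above the highest (0.86).

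The 11 tested probes that carry the complementary run, alternating G and T, were instead all higher in I/R than in Sham (median 0.85, range 0.60 to 1.07) and all lower in DHI than in I/R (median -0.52). Neuronal genes, listed below, moved in the same directions as the 14. The part that the repeat takes in the Cx3cr1 signal was not tested. The array holds no other probe with the Cx3cr1 symbol against which it could be set.

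**Figure D2:**
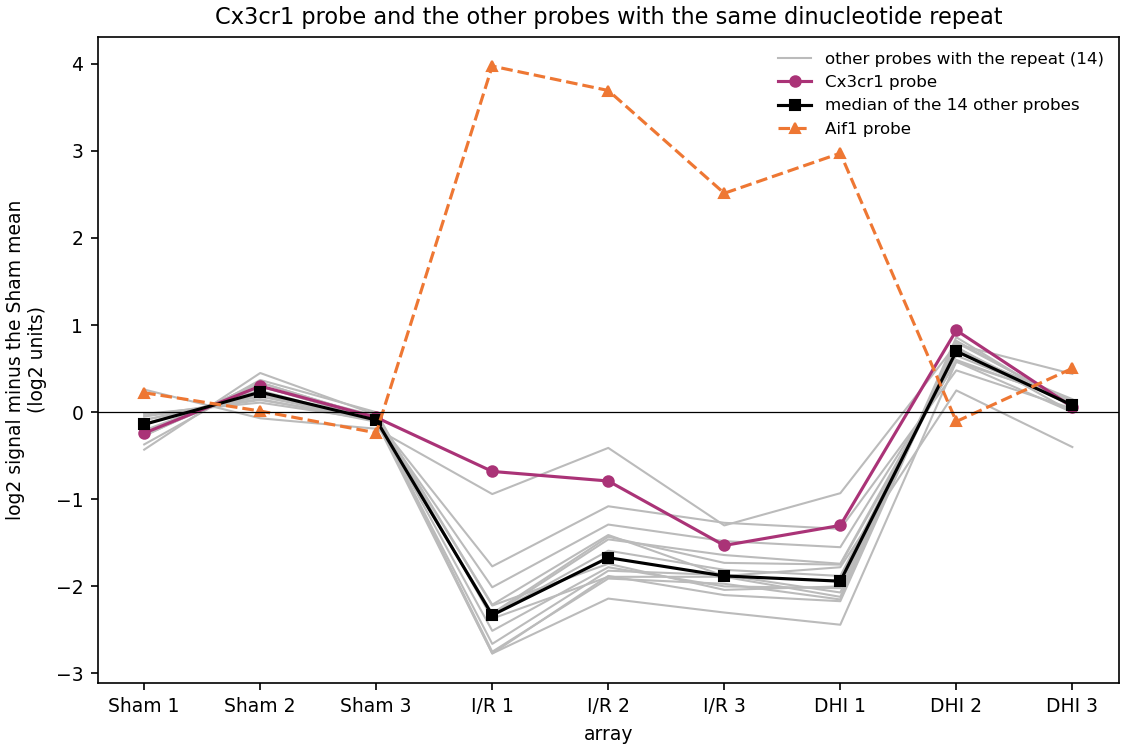
Log2 signal minus the Sham mean (vertical axis, log2 units) on each of the 9 arrays (horizontal axis) for the Cx3cr1 probe, the 14 other probes that carry the same repeat (grey, with their median in black) and the Aif1 probe. Lines join the values of 1 probe and imply no order of the arrays. The Cx3cr1 probe and the repeat probes lie below 0 on the I/R arrays and on DHI 1, where Aif1 lies well above 0.

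Counted together, 7 of the 8 genes passed an unadjusted p of 0.05 and a 1.5-fold change upward in I/R versus Sham, where 20.8% of the 23747 tested probes did so, and 0 passed downward. With the Benjamini-Hochberg adjusted p in its place, the same 7 passed (adjusted p = 0.0396 each by limma), against 16.4% of all probes. The I/R and Sham arrays did not overlap for any of the 8, upward for 7 genes, where 26.7% of all probes had that pattern, and downward for Cx3cr1, where 35.8% had it. The median difference over the 8 genes was 2.90, beside -0.10 over all tested probes. The adjusted call was close to its threshold: 0 of the 8 genes passed it when any Sham array, I/R 1, I/R 2 or DHI 3 was left out, or without scaling between arrays, while the unadjusted call was made for 7 or 8 genes with any 1 array left out.

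In DHI versus I/R, which shares the I/R arrays with the comparison above, 7 of the 8 genes passed the unadjusted p and the fold threshold downward, where 10.5% of all tested probes did. By limma 0 passed the adjusted p, against 7 at the unadjusted p, and among all probes 0.00421% passed it. No gene had DHI arrays that all lay below the I/R arrays (0 of 8, against 4.02% of all probes). DHI 1 lay inside the I/R range for each gene, and for Cx3cr1 DHI 2 and DHI 3 lay above all I/R arrays. The median difference was -1.80, beside 0.10 over all tested probes. The count rested on single arrays: 0 genes passed without I/R 1, without DHI 2 or without DHI 3, and 3 without I/R 2, whereas without DHI 1 all 8 passed both the unadjusted and the adjusted p, 7 of them downward (-4.01 to -1.79) and Cx3cr1 upward (1.5). With only the I/R and DHI arrays in the model 3 passed, and with the methods' t-test 0. The shares of all probes above belong to the main model, and none is given for these other fits, so their counts have no background beside them.

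Between DHI and Sham, 0 of the 8 genes passed the unadjusted p and fold threshold (2.52% of all tested probes did upward) and 0 the adjusted p (0% of all probes) by limma, and 0 genes had an unadjusted p under 0.05. Sall1 was the 1 gene whose groups did not overlap upward, where 10.3% of all probes had that pattern. The means were higher in DHI for 7 genes, with differences from 0.59 (P2ry13) to 1.75 (Irf8), and lower for Cx3cr1. For Irf8 the 95% confidence interval ran from -0.43 to 3.93, so the interval held both no difference from Sham and a rise of several fold. Without DHI 2, 4 genes passed the unadjusted threshold upward, and without DHI 1 the differences of the 7 genes were between -0.04 and 0.58. No share of all probes is given for those fits.

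**Figure D3:**
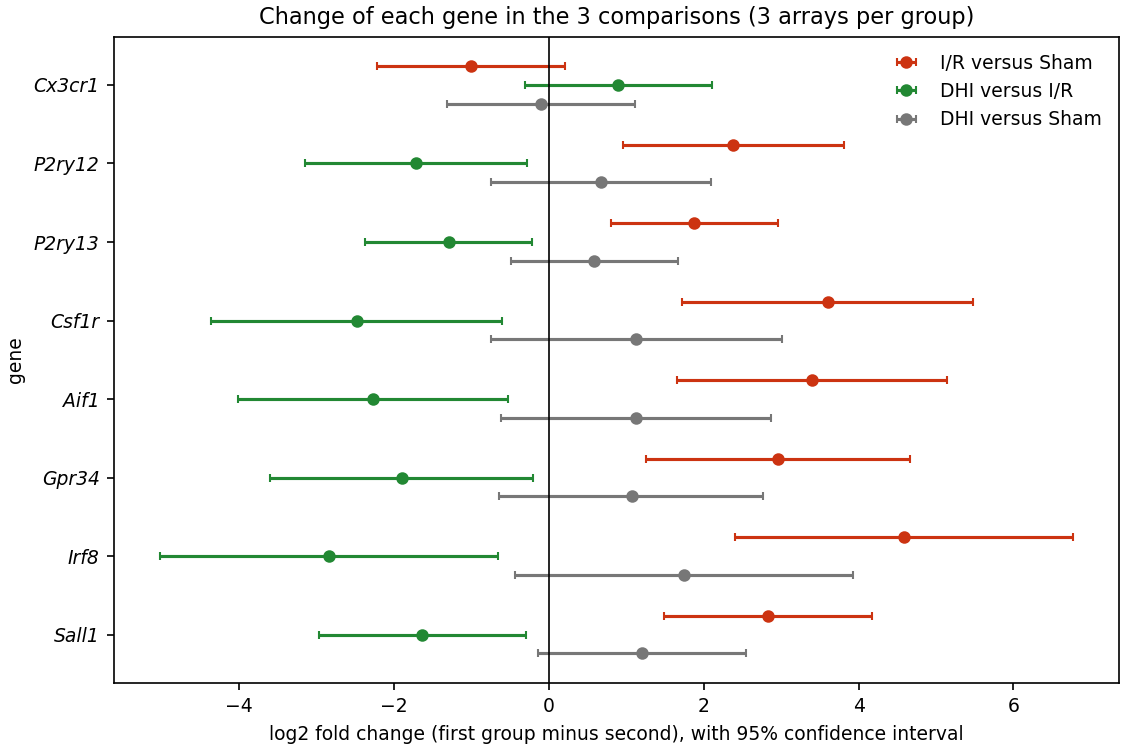
Log2 fold change (horizontal axis, first group minus second) of the 8 genes (vertical axis) in the 3 comparisons, named in the key, with bars for the 95% confidence interval from limma. The I/R versus Sham intervals lie above 0 for all genes but Cx3cr1, and the DHI versus Sham intervals include 0 for all 8.

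The order of the arrays within a group was shared by the genes in I/R and, but for Cx3cr1, at both ends in DHI, and not in Sham. The highest Sham array was Sham 1 for 3 genes, Sham 2 for 3 and Sham 3 for 2. I/R 1 was the highest and I/R 3 the lowest I/R array for 8 of 8 genes, and I/R 3 was also the array with the highest 75th percentile, 3464.38. DHI 1 was the highest and DHI 2 the lowest DHI array for 7 genes, and the reverse held for Cx3cr1. On a scale with the Sham mean at 0 and the I/R mean at 1, DHI 1 stood at 0.85 to 0.97 for the 7 genes other than Cx3cr1, DHI 2 at -0.12 to 0.05 and DHI 3 at 0.09 to 0.33. For Cx3cr1 the positions were 1.31, -0.94 and -0.06. The DHI mean of each of the 7 genes therefore lay between DHI 1 and both other DHI arrays. The intensities of DHI 2 were also the dimmest, with a 75th percentile of 1816.3, and the part of this in its low values was not tested.

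**Figure D4:**
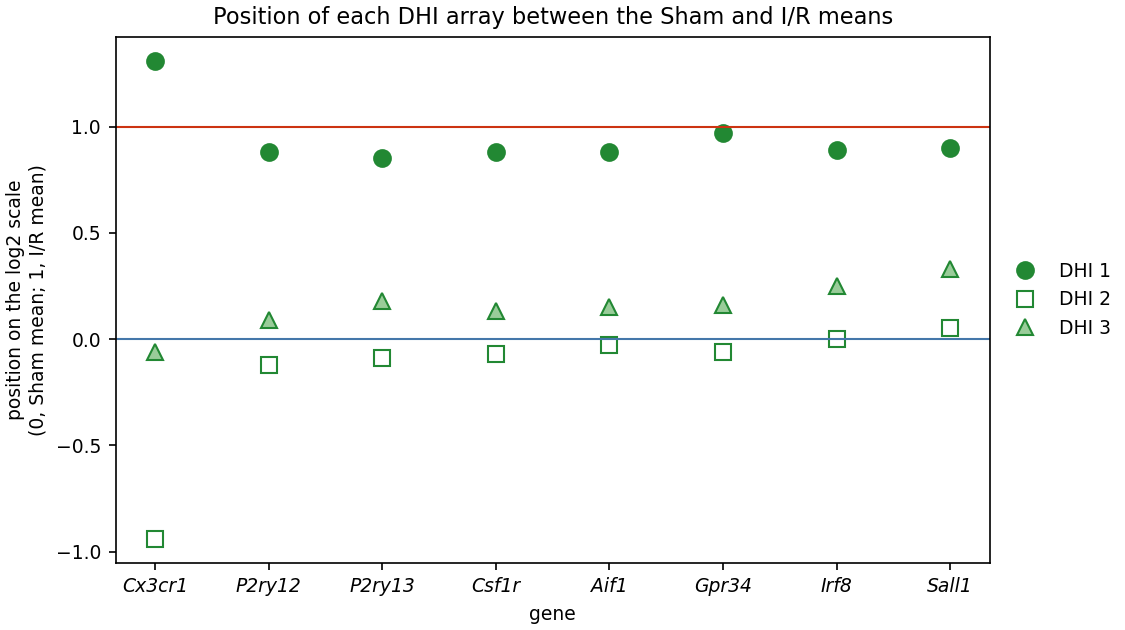
Position of each DHI array (vertical axis, log2 scale with the Sham mean at 0 and the I/R mean at 1) for the 8 genes (horizontal axis). DHI 1 lies between 0.85 and 0.97 for 7 genes, and DHI 2 and DHI 3 lie between -0.12 and 0.33 for the same 7.

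The changes were also set against that of Aif1. The difference between a gene and Aif1 on the same array does not depend on the scaling between arrays, and its change between groups was tested by an exact two-sided permutation test, which with 3 arrays per group cannot give a p below 0.1. In the I/R group, compared with Sham, P2ry13 changed by -1.52 relative to Aif1, P2ry12 by -1.01 and Gpr34 by -0.43, with Sall1 at -0.56. For each of these 4 genes the Sham and I/R values of the difference did not overlap (exact permutation p = 0.1 each). Aif1 itself rose by 3.40 and the median over all tested probes was -0.10, so a probe at that median also falls relative to Aif1. The share of all probes whose groups do not overlap relative to Aif1 was not computed, for this or the other comparisons. The Cx3cr1 probe, which carries the repeat and whose own lower mean in I/R did not pass in the main model, changed by -4.39 relative to Aif1 (exact permutation p = 0.1). The part of the repeat in that value was not tested. The change of Csf1r relative to Aif1 was 0.21, and its values overlapped between groups (exact permutation p = 0.3). Irf8 changed by 1.19 relative to Aif1 (exact permutation p = 0.1), but by -0.86 with normexp background correction. The normexp offset of 50 lowers the fold of the dim Irf8 probe and hardly that of Aif1, so the direction for Irf8 was not settled.

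P2ry12 relative to Aif1 had a mean of -0.98 ± 0.17 (SD, n = 3) for Sham, -1.99 ± 0.12 for I/R and -1.44 ± 0.37 for DHI. The groups did not overlap in any of the 3 comparisons (exact permutation p = 0.1 each), with DHI between the others. The same difference for Gpr34 had a mean of -2.50 ± 0.19 for Sham, -2.94 ± 0.09 for I/R and -2.57 ± 0.04 for DHI. There DHI was above I/R without overlap (0.37, exact permutation p = 0.1) and overlapped Sham (exact permutation p = 0.6). For the other 5 genes DHI and I/R overlapped (exact permutation p = 0.2 each), with changes relative to Aif1 of 3.16 for Cx3cr1, 0.98 for P2ry13, 0.64 for Sall1, -0.57 for Irf8 and -0.21 for Csf1r. The Irf8 change was 0.90 with normexp. A difference between probes is used here only for its change between groups, since the brightness of 1 probe says nothing of another gene's level.

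Ligands and signals that shape microglia were listed as 12 genes, of which 11 were tested and Smad3 was not well above background on enough arrays. In I/R versus Sham 7 passed the unadjusted p and fold threshold upward and 2 downward, and the median difference was 2.20. Cx3cl1, which encodes fractalkine, the neuronal ligand of Cx3cr1, fell by 1.59 on the log2 scale (SE 0.46, adjusted p = 0.0413 by limma). Of the Csf1r ligands, Csf1 rose by 2.20 ± 0.57 (adjusted p = 0.0396 by limma) while Il34, made mainly by neurons, differed by -0.36 ± 0.21 without passing. Il34 had mean levels of 3.04 (Sham), 2.68 (I/R) and 2.73 (DHI).

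Transforming growth factor beta maintains the microglial state, and Tgfb1 rose by 4.0, with its receptors Tgfbr1 and Tgfbr2 higher by 3.39 and 2.57. The lineage factors Spi1, which encodes PU.1, and Runx1 rose by 3.95 and 2.15. Mef2c, a factor of microglia and of neurons, fell by 1.58, and Mef2a differed by -0.09. From I/R to DHI 7 of those 11 passed the unadjusted threshold downward and Cx3cl1 passed upward (1.08 ± 0.46), and 0 passed the adjusted p by limma. In DHI versus Sham 0 of the 11 passed either threshold, with a median difference of 0.71.

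Most other genes known from resting microglia were higher in I/R too. Of 18 symbols listed, 15 were on the array and 14 tested, and 11 passed the unadjusted threshold upward in I/R versus Sham and 0 downward, with a median of 2.36. Gpr56 and its newer symbol Adgrg1 were both listed, and the array carries the gene under the older symbol. Siglech was the gene not tested, with 0 Sham arrays well above background. Olfml3, a secreted protein enriched in microglia, rose by 2.83 ± 0.80, and P2ry6, a receptor for UDP linked to phagocytosis, by 3.92 ± 0.77. Gpr56, an adhesion receptor that other brain cells also carry, differed by 0.57 ± 0.18, under the fold threshold. In DHI versus I/R 10 of the 14 passed downward (median -1.54), and in DHI versus Sham 0 passed, with a median of 0.84.

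Genes of myeloid cells in general and of activated microglia were higher in I/R as well. All 13 tested pan-myeloid genes passed the unadjusted threshold upward, with a median of 4.07, among them Laptm5 (3.68), Ctss (2.84), C1qb (3.61) and Coro1a (1.32). The mean level of that list lay between 3.08 and 4.53 on the I/R arrays, between -0.06 and 0.09 on the Sham arrays and between 0.09 and 3.70 on the DHI arrays. Of 16 genes of activated microglia 14 passed upward, with a median of 2.76, including the cathepsins Ctsd (2.43) and Ctsb (1.43), the fatty acid binding protein Fabp5 (1.44) and the lipid carrier Apoe (0.70). Itgax and Clec7a, counted among the 14, were well above background on 0 Sham arrays and all 3 I/R arrays. They entered the test through I/R alone, so their rises carry little weight in that count. In DHI versus I/R 12 of the 13 pan-myeloid genes and 10 of the 16 activation genes passed downward.

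Genes listed for monocytes and border macrophages, for neutrophils and for lymphocytes moved in the same comparisons. Of the 12 genes listed for monocytes and border macrophages 9 were tested, and 8 of these passed upward in I/R versus Sham with a median of 2.01. Siglec1, a sialic acid receptor of tissue macrophages, rose by 7.44 ± 1.73, Plac8 by 3.30 ± 1.24, Fn1 by 2.01 ± 0.57 and Vcan by 1.35 ± 0.34. The mean log2 level of that list ran from -4.75 to -3.87 on the Sham arrays, from -2.44 to -1.38 on the I/R arrays and from -4.71 to -1.67 on the DHI arrays. Ccr2, the defining chemokine receptor of inflammatory monocytes, was well above background on 1 DHI array only, and on no Sham or I/R array.

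Among neutrophil genes 5 of the 6 tested passed upward, with S100a8 at 2.01, S100a9 at 1.42, Camp at 0.67 and Csf3r at 4.40, while Elane and Ltf were not well above background on any array. Mmp8, counted among the 5, was well above background on 0 Sham arrays and all 3 I/R arrays, so it entered the test through I/R alone. The mean level of that list ran from -6.92 to -6.35 on the Sham arrays, from -5.04 to -3.99 on the I/R arrays and from -5.89 to -4.26 on the DHI arrays. Of 11 lymphocyte genes 7 passed upward, among them Cd3g (2.71), Cd8b (2.32), Nkg7 (1.90) and Cd3d (0.59), and Ms4a1 was marked as well above background on 0 arrays. Cd8a and Prf1, counted among the 7, were well above background on all 3 arrays in I/R only, so they too entered the test through I/R alone. The lymphocyte mean lay between -7.10 and -6.46 in Sham, between -5.09 and -4.75 in I/R and between -6.72 and -4.94 in DHI. The part of these cells in the 8 genes, several of which macrophages share, was not tested.

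The other brain cell types were listed for comparison. All 10 neuronal genes passed downward in I/R versus Sham (median -2.66), including Snap25 (-3.0), Gad1 (-1.92), Stmn2 (-1.66) and Map2 (-2.02), and 7 passed upward in DHI versus I/R (median 1.97). Of 8 astrocyte genes 4 passed upward and 1 downward in I/R versus Sham, with Aqp4 at 1.47, Gja1 at 0.79, Slc1a3 at 0.36 and S100b at 0.20. The 8 oligodendrocyte genes had a median of 0.11 with 0 passing, and Mbp, Mobp and Mag differed by -0.24, -0.23 and 0.29. Of 8 endothelial genes 2 passed, with Pecam1 at 1.1, Slco1a4 at 0.58, Cldn5 at 0.16 and Kdr at -0.06.

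All 4 red blood cell genes passed downward from Sham to I/R and upward from I/R to DHI, with Hbb at -2.17 and 2.87, Hba-a2 at -2.04 and 2.67, Hbb-b1 at -2.26 and 2.95, and Alas2 at -1.71 and 2.06. The part of neurons and of blood in the values of the 8 genes was not tested. Choroid plexus genes varied within groups, with a Ttr SD of 3.89 in I/R, and 1 of 5 passed in I/R versus Sham (Folr1, 4.51), while Kcnj13 and Otx2 differed by 1.65 and 0.83. Reference genes had a median of -0.34, with Ppia at -0.34, Pgk1 at -0.84 and Rpl13a at 0.43.

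**Figure D5:**
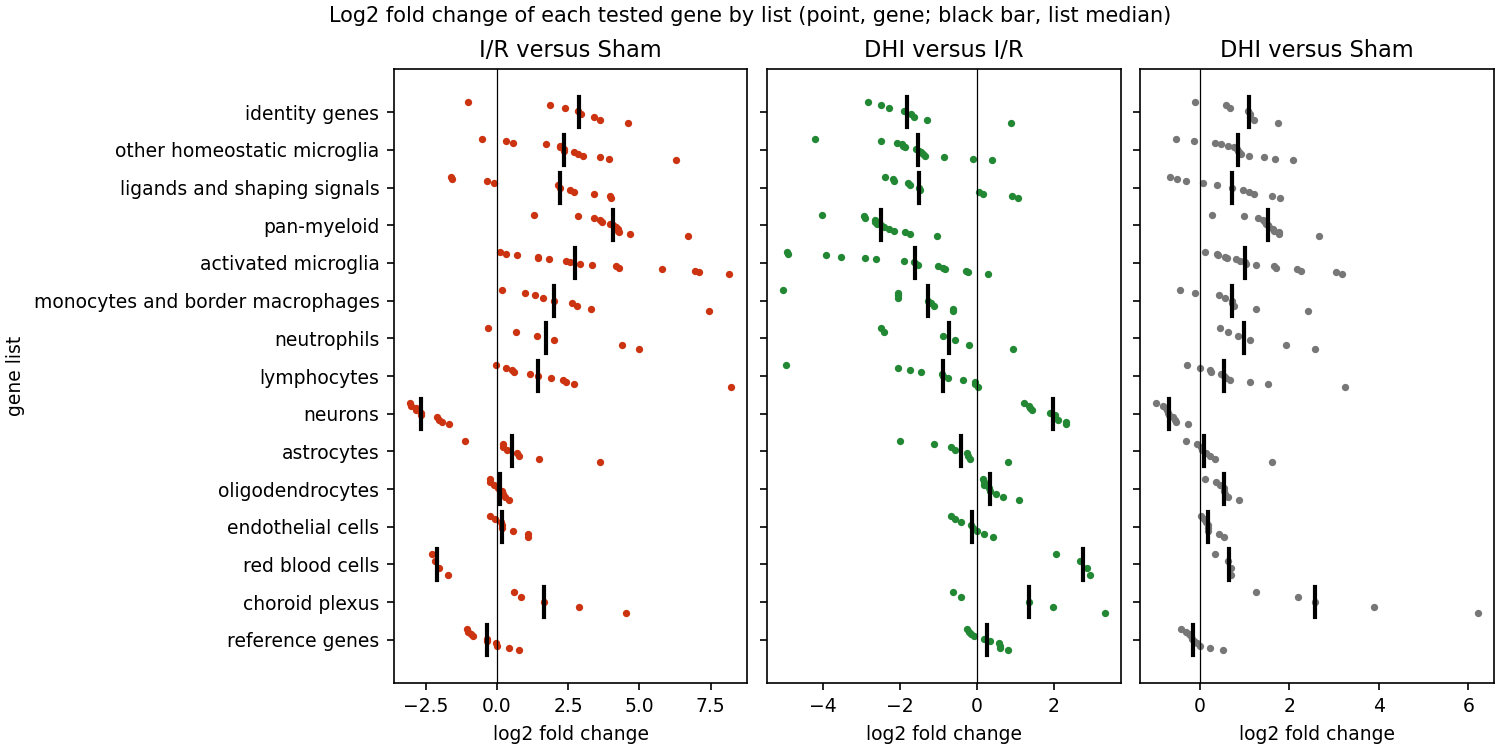
Log2 fold change (horizontal axis) of each tested gene of the 8 identity genes and of 14 other lists (vertical axis) in the 3 comparisons. Points are genes and black bars are list medians. The lists of microglial genes, pan-myeloid genes and monocytes and border macrophages have medians between 2.01 and 4.07 in I/R versus Sham, where the neuronal list has a median of -2.66.

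The gene whose profile over the 9 arrays was most like each of the 8 was sought among 15587 tested symbols, by the root mean square difference of log2 levels centred on the Sham mean. For Aif1 it was Casp1, the protease that matures interleukin 1 beta, with a difference of 0.0641, the closest match of the 8. For Csf1r it was Nckap1l, an actin regulator of blood cells (0.112), for Gpr34 it was Fli1, a transcription factor of blood and endothelial cells (0.118), and for P2ry12 it was Lpxn, an adhesion adaptor of leukocytes (0.147). P2ry13 was closest to Sh2b3 (0.104), Irf8 to Ms4a11 (0.108) and Sall1 to Sh3bp2 (0.124). Cx3cr1 was closest to Eya4, a transcriptional coactivator and phosphatase (0.155), whose probe carries no run of alternating C and A longer than 3 bases and which differed by -1.04 from Sham to I/R and by 0.99 from I/R to DHI.

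Within the 8, Csf1r and Aif1 were nearest to each other (0.198), as were Gpr34 and Sall1 (0.250) and P2ry12 and P2ry13 (0.366). Cx3cr1 was far from all of them, its nearest being P2ry13 at 1.97. Since all genes were compared over the same 9 arrays, these figures describe profiles shared by a group of arrays and carry no test.

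Myeloid genes are commonly bound by PU.1, and the core letters of its motif were searched in the RefSeq promoters (build GRCr8, 250 bases before to 50 after the start site), which held 5 of the 8 genes: P2ry13, Cx3cr1, Csf1r, Irf8 and Gpr34. GAGGAA, on either strand, was found for Csf1r and Gpr34, 2 of 5, while 27.6% of 33469 promoters hold it. GGAAGT, on either strand, was found for Cx3cr1, 1 of 5, against 22.6% of promoters. Neither share says anything particular about these genes. The Gpr34 promoter is shown as the example with the match nearest the start site, beginning 12 bases before it, in capitals as its reverse strand TTCCTC.
Gpr34 (chrX:11785837-11786086, minus strand): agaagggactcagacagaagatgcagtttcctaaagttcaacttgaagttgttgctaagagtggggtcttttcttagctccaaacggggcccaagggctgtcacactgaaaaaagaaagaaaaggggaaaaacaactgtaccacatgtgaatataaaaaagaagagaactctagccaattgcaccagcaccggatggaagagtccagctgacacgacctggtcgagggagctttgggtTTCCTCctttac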

How the data were processed

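The authors deposited 1 Agilent Feature Extraction (10.7.1.1) file per array with spot intensities on a linear scale, corrected for background but left unscaled from array to array, and a series table of log2 values with nearly the same distribution on every array, whose normalization is not given in the sources used here. Here the log2 of the processed intensity was averaged over the spots of a probe, without control and outlier spots (392 to 725 per array), and the array's 75th percentile was subtracted. A probe entered the tests (23747 did) if some group had it well above background on each of its 3 arrays. One limma 3.58.1 model (lmFit and eBayes, R 4.3.3) covered all 9 arrays, at the study's thresholds (unadjusted p under 0.05, fold over 1.5) and at a Benjamini-Hochberg adjusted p under 0.05 over all tested probes. Groups and replicate numbers came from the labels. The fit was tested on simulated data.

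The 8 genes and the 14 other lists were chosen with earlier results of these data known. Besides the 8, the text names all ligands and shaping signals, the 4 genes of each other list with the highest mean signal, and the gene most like each of the 8, except for some results that are not reported here. Genes beyond that rule (Siglech, Ccr2, Elane, Ltf, Ms4a1, Itgax, Clec7a, Mmp8, Cd8a and Prf1) and the comparison of repeat probes were chosen after their values were seen. The alternatives were 11 other settings and each array left out in turn. Probe coordinates follow the files (rn4), without exon annotation.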

Additional observations from a re-analysis of the deposited data

How the results depend on the processing

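Over 11 other settings, the count of the 8 genes past the unadjusted p and the fold threshold in I/R versus Sham was between 6 and 8, against 7, and with 1 array left out it was 7 to 8. Their count past the adjusted p there was 0 without scaling between arrays and 6 to 8 in the other settings, and 0 to 8 with 1 array left out. Both counts of 6 came from the setting that kept only probes well above background on all 9 arrays. That setting left Irf8 untested, so these counts are 6 of 7 genes. In DHI versus I/R the unadjusted count of 7 became 3 with only the groups compared in the model, 0 with the methods' t-test and 0 to 8 with 1 array left out, and the adjusted count of 0 became 8 with array weights (7 lower and Cx3cr1 higher in DHI) and ranged from 0 to 8 with 1 array left out. In DHI versus Sham the unadjusted count of 0 became 2 with normexp, 2 with array weights and 1 with the replicate block, and 0 to 4 with 1 array left out, and the adjusted count became 1 with array weights, and 0 with any array left out. Array weights gave DHI 1 a weight of 0.0936. The cause of these changes was not tested. The shares of all probes given above come from the main model, and no such share is given for the other settings or with an array left out.

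Among the fitted differences of the 8 genes, signs turned only between DHI and Sham. The Cx3cr1 difference of -0.10 became 0.07 with array weights and ranged from -0.62 (without DHI 2) to 0.50 (without DHI 1) with 1 array left out, being 0.05 without Sham 2. The P2ry12 difference of 0.67 ranged from -0.04 (without DHI 1) to 1.15 (without DHI 2). Relative to Aif1 with normexp, P2ry13 changed by -1.94 in I/R versus Sham and Irf8 by -0.86, 0.90 in DHI versus I/R and 0.04 in DHI versus Sham. Without scaling the median over all tested probes was 0.10, -0.36 and -0.25 in the 3 comparisons, against -0.10, 0.10 and 0.02, and differences between genes on an array were not affected.

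The labels number the rats 1 to 3 in each group, and the methods name no pairing. Deviations of same-numbered arrays from their group means correlated at 0.0671, -0.289 and 0.15 between I/R and Sham. Between DHI and I/R they correlated at 0.476, -0.341 and 0.417, and between DHI and Sham at 0.0771, 0.304 and 0.0249. Arrays with different numbers were not compared, so these values cannot decide whether the numbers pair the rats. With the replicate block the counts past the unadjusted threshold were 7, 7 and 1, and Irf8 in DHI versus Sham (1.75) was the call that it added, with no other call of the 8 genes changed. At dim probes such as Irf8 in Sham, signal over background limits the size of a fold.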
